A study of Mus musculus with 16 samples.

Results

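The genes of the epithelial to mesenchymal transition followed here in sorted mouse mammary tumour cells were the transcription factor genes Zeb1, Zeb2, Snai1, Snai2, Twist1, Twist2 and Prrx1, and the mesenchymal marker genes Vim, Cdh2 and Fn1. They were taken by symbol, as a fixed list of 10 of the 49139 genes with a symbol, and all 10 were found. RNA was sequenced from 4T07 cells, a mouse mammary carcinoma line, that had been transduced with GFP or mCherry and sorted from mammary fat pad tumours of female hybrids of Balb/cJ and C57BL/6J. In 4 of the 5 groups the tumours began from 250000 cells, GFP and mCherry in equal parts, and the mice later received PD1-knockout Jedi T cells, which recognise GFP. The groups were GFP cells that survived and mCherry cells beside them from 3 tumours injected with T cells on day 7, the same pair of groups from 3 tumours injected on day 15, and mCherry cells from 4 control tumours with neither GFP cells nor Jedi T cells. Tumours with T cells were taken 7 days after the injection, while neither the harvest day of the controls nor the age of the mice is given in the sources used here.

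Several limits come from this design. No library came from GFP cells of a tumour without Jedi T cells, so the reporter and the T cell attack cannot be told apart in any comparison of GFP with mCherry cells. The day 7 libraries formed sequencing run 1 and all others run 2, so day and run cannot be told apart in any level. All tumours came from a single cell line. The 16 libraries held 9412040 to 32808354 counts, with the fewest in day 7 GFP (9412040 to 14535791). Tumours and controls carry the numbers of the count columns here, 2 to 4 on day 7, 1 to 3 on day 15 and 1 to 4 in the controls. On day 7 the labels do not match these numbers to tumours, so pairs of the same tumour are assumed from the column number.

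As background, the epithelial to mesenchymal transition is a programme in which epithelial cells loosen their junctions and gain a spindle shape and motility. The Snail factors (Snai1 and Snai2) and the ZEB factors (Zeb1 and Zeb2) are zinc finger proteins, and the Twist factors are basic helix-loop-helix proteins; all bind E-box DNA, and Snail and ZEB factors are best known for repressing Cdh1, the gene of the epithelial adhesion protein E-cadherin. Prrx1 is a homeobox factor of mesenchymal tissue. Vim (vimentin, an intermediate filament), Cdh2 (N-cadherin) and Fn1 (fibronectin, a matrix glycoprotein) are the usual readouts of the mesenchymal state, and fibroblasts carry many of the same RNAs.

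The promoters that follow show the E-box at which Snail and ZEB factors bind, in Snai1, the gene of the set with this motif, and in Krt8 and Krt18, the keratin genes that were lower in GFP cells on both days. Each is the 250 bases before the RefSeq gene start in GRCm38.p6, written 5′ to 3′ on the strand of the gene, and the capitals mark the motif CACCTG, which reads CAGGTG on the opposite strand. The windows are chr2:167537945-167538194 (plus strand) for Snai1, chr15:102004343-102004592 (minus strand) for Krt8 and chr15:102027966-102028215 (plus strand) for Krt18.
Snai1: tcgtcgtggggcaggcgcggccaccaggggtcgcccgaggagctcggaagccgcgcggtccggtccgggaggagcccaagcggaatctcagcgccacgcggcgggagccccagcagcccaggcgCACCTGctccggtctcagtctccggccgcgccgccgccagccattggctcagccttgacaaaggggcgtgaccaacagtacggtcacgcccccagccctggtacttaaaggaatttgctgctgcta
Krt8: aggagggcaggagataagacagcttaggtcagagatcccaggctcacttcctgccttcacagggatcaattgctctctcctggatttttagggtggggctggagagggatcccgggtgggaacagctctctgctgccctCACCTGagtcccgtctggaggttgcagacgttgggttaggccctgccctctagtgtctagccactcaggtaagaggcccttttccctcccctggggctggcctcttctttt
Krt18: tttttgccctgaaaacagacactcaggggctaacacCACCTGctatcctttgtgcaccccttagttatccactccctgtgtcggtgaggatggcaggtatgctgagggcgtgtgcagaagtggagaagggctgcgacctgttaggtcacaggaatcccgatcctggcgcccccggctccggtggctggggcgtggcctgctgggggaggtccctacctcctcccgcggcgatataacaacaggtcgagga
The motif lay 126 to 121 bases before the start of Snai1, 111 to 106 before Krt8 and 214 to 209 before Krt18. Of the 6 genes of the set with a window, 1 held the motif in any of its windows, and of 13 epithelial genes with a window 9 did, against 19.4% of all 27025 genes counted the same way (17.2% of all 32851 single windows). The epithelial list was drawn from genes that such factors are known to repress, so its high share is no independent result. It holds 21 genes, and those without a window include Cdh1. A match describes these letters only and shows no binding.

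The 10 genes fell into an abundant and a scarce set, and the division was the same in all 5 groups. Levels are given as CPM, counts scaled to a library total of 1000000. On the scale of CPM per kilobase of exon (CPM per kb), which allows genes to be compared, Fn1 and Vim came first in every group, followed by Snai1 and then Zeb2, and the other 6 genes stayed below. In day 15 GFP cells the levels were 1760.5 ± 153 CPM per kb for Fn1, 723 ± 78.3 for Vim, 47.7 ± 5.53 for Snai1 and 10.2 ± 1.35 for Zeb2 (SD, n = 3). In day 15 mCherry cells they were 1830.4 ± 57.8, 711 ± 14.8, 52.8 ± 5.66 and 9.05 ± 0.248 CPM per kb in the same order of genes. These 4 neighbours did not overlap in any run 2 group, whereas in both day 7 groups the libraries of Fn1 and Vim overlapped. Among the scarce genes Twist2 led in day 15 GFP cells with a mean of 0.164 CPM per kb, and Twist1 led in day 15 mCherry cells with 0.268 and in controls with 0.680, but most neighbours in the order overlapped.

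**Figure D1:**
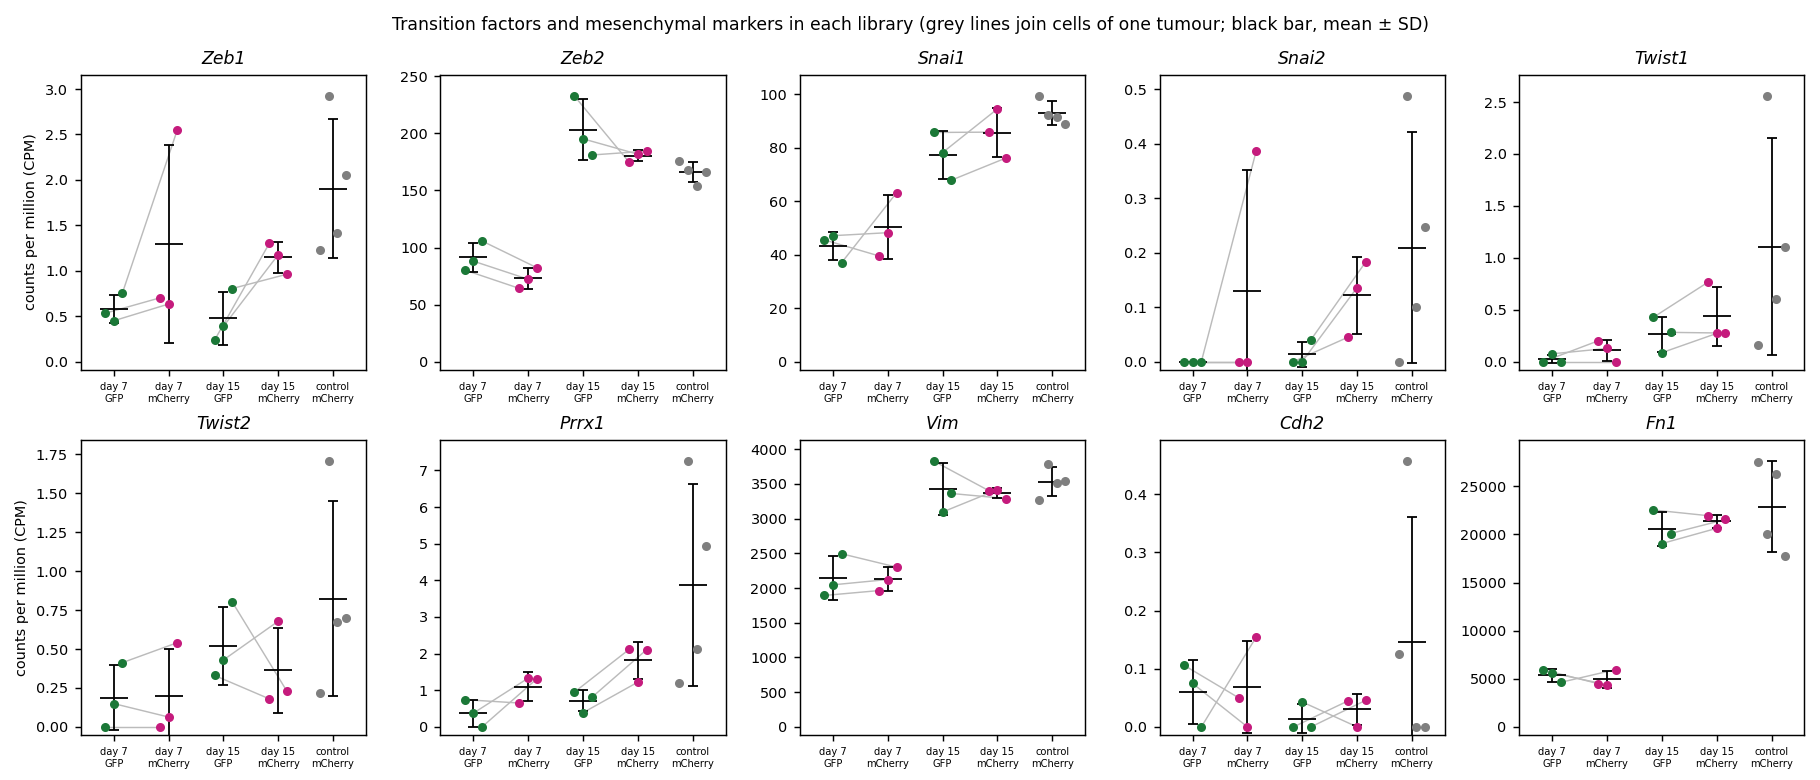
Each point is the CPM of a gene in 1 library, with GFP cells left of mCherry cells on each day and the control tumours last; grey lines join the cells of a tumour and the black bar gives mean ± SD. Fn1, Vim, Zeb2 and Snai1 overlapped between GFP and mCherry cells on both days, while Prrx1 and Zeb1 were low throughout and lower in each day 15 GFP library than in each day 15 mCherry library.

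In tumours injected on day 7, the comparison asks how surviving GFP cells differed from untargeted mCherry cells of the same tumours. Of the 10 genes, 5 had enough counts to be tested, and 0 passed an adjusted p of 0.05 in edgeR's quasi-likelihood test with tumour as a block, in a comparison that called 18.2% of all genes tested (8.89% higher and 9.33% lower). At an unadjusted p below 0.05, 1 of the 5 (Zeb2) passed, and DESeq2 called 0. The median log2 fold change of the 5 was −0.02, against −0.0037 over all 14578 genes tested. In tumours injected on day 15, 6 genes were tested and 1, Prrx1, was lower in GFP cells, against 19.5% of all genes called (8.94% higher and 10.6% lower). The median log2 fold change of the 6 was −0.08, against 0.0065 over all 14260 genes tested. Counts of 0 of 5 and 1 of 6 are no result about the set beside these backgrounds, and with no filter on low counts they were 1 of 10 and 2 of 10.

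Zeb2 (chr2:44983632-45117395 in GRCm38), a ZEB repressor, held 80.3, 88.1 and 105.7 CPM in day 7 GFP cells of tumours 2, 3 and 4, against 64.1, 72.2 and 82.3 CPM in their mCherry cells. GFP was higher in every tumour, by 0.29 to 0.36 in log2 CPM, although the lowest GFP library lay below the highest mCherry library. The fitted log2 fold change was 0.31 ± 0.10 (SE, n = 3 tumours; edgeR, adjusted p = 0.0510), which did not pass. On day 15 Zeb2 stood at 233, 195 and 181 CPM in GFP cells, against 175, 182 and 185 CPM in mCherry cells of tumours 1, 2 and 3. Tumour 1 had the highest GFP value, in tumour 3 GFP was slightly lower than mCherry, and the groups overlapped. The log2 fold change was 0.19 ± 0.10 (adjusted p = 0.222). Zeb2os, an antisense gene that overlaps Zeb2, held 2016 counts over all libraries against 52629 for Zeb2, and the sources used here do not give the strand setting of the counting.

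Zeb1, the other ZEB repressor, was near the limit of detection, with 416 counts over all 16 libraries. It held 0.236, 0.386 and 0.804 CPM in day 15 GFP cells, against 1.30, 1.18 and 0.962 CPM in mCherry cells of the same tumours. Every GFP library lay below every mCherry library, yet the difference did not pass (log2 fold change −1.28 ± 0.47, edgeR, adjusted p = 0.0846). On day 7 Zeb1 was below the filter on low counts, at 0.531, 0.449 and 0.757 CPM in GFP cells, against 0.701, 0.633 and 2.55 CPM in mCherry cells. The mCherry library of tumour 4 stood apart at the top, and the groups overlapped.

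Snai1 (chr2:167538195-167542814), a Snail repressor whose promoter is given above, was well expressed. Day 7 GFP cells held 45.6, 47.1 and 37.1 CPM, against 39.6, 48.3 and 63.2 CPM in mCherry cells of tumours 2, 3 and 4. Tumour 2 was higher in GFP cells and tumour 4 lower, and the groups overlapped (log2 fold change −0.22 ± 0.18, edgeR, adjusted p = 0.446). On day 15 Snai1 held 85.8, 78.3 and 67.9 CPM in GFP cells, against 85.9, 94.6 and 76.3 CPM in mCherry cells. GFP was at or below mCherry in each tumour, but the groups overlapped (log2 fold change −0.12 ± 0.09, adjusted p = 0.387). Its relative Snai2 had 39 counts over all libraries and 0 in 8 of them, including all 3 of day 7 GFP, and was not tested. In day 15 GFP cells Snai2 held 0, 0 and 0.0402 CPM, against 0.0450, 0.136 and 0.183 CPM in mCherry cells. All of these values come from a handful of counts, 1 in the GFP group and 8 in the mCherry group.

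Twist1 and Twist2, the helix-loop-helix factors, were likewise too scarce to test between GFP and mCherry cells, with 188 and 177 counts over all libraries. Twist1 held 0.425, 0.0859 and 0.281 CPM in day 15 GFP cells, against 0.764, 0.271 and 0.275 CPM in mCherry cells. Tumours 1 and 2 were lower in GFP cells and tumour 3 nearly level, and the groups overlapped. Twist2 held 0.330, 0.429 and 0.804 CPM in day 15 GFP cells, against 0.1798, 0.678 and 0.229 CPM in mCherry cells. Here tumours 1 and 3 were higher in GFP cells, and the groups overlapped again. On day 7 neither gene exceeded 0.541 CPM in any library. Gm29100, which overlaps Twist2 on the opposite strand, held 295 counts, more than Twist2 itself, so that the Twist2 values are uncertain.

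Prrx1 (chr1:163245119-163313710), the homeobox factor, was the gene of the set that passed on day 15. It held 0.944, 0.386 and 0.804 CPM in day 15 GFP cells, which are 20, 9 and 20 counts, against 2.11, 1.22 and 2.11 CPM in mCherry cells, which are 47, 27 and 46 counts. GFP was lower in each of the 3 tumours and the groups did not overlap. The fitted level was 2.54 times lower in GFP cells (log2 fold change −1.34 ± 0.34, n = 3 tumours, edgeR, adjusted p = 0.0202). The direction stayed the same but the call ended under DESeq2 (adjusted p = 0.0572), without the tumour block (0.0562), in a joint fit of run 2 (0.188) and without tumour 2 (0.0501) or tumour 3 (0.0979). On day 7 Prrx1 held 0.744, 0.374 and 0 CPM in GFP cells, against 0.651, 1.33 and 1.31 CPM in mCherry cells. Tumours 3 and 4 were lower in GFP cells and tumour 2 slightly higher (log2 fold change −1.71 ± 0.79, adjusted p = 0.169). In the authors' deposited table Prrx1 had a log2 fold change of −1.36 on day 15 (adjusted p = 0.0590), and in their day 7 table −2.02 (adjusted p = 0.196). Gm20471, Gm26523 and Gm37644 overlap Prrx1, with 159, 113 and 73 counts against 691 for Prrx1.

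Vim (chr2:13573927-13582826) was among the most abundant RNAs, at rank 5 to 35 of all genes in every library. It held 1893.6, 2047.0 and 2494.1 CPM in day 7 GFP cells, against 1964.3, 2123.6 and 2302.2 CPM in mCherry cells. In both colours tumour 4 was highest and tumour 2 lowest, and the groups overlapped. The log2 fold change was −0.02, with a 95% confidence interval of −0.24 to 0.21 (edgeR, adjusted p = 0.938). On day 15 Vim held 3830.0, 3096.4 and 3363.4 CPM in GFP cells, against 3405.3, 3417.4 and 3290.3 CPM in mCherry cells. GFP values lay on both sides of the narrow mCherry range (log2 fold change 0.05, interval −0.20 to 0.29, adjusted p = 0.803).

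Fn1 (chr1:71585520-71653200) was the most abundant RNA of all in each of the 10 run 2 libraries, with 1.77% to 2.75% of counts. Day 7 GFP cells held 5934.0, 5605.6 and 4634.8 CPM, against 4494.5, 4377.1 and 5961.1 CPM in mCherry cells of tumours 2, 3 and 4. Tumours 2 and 3 were higher in GFP cells and tumour 4 lower, and the groups overlapped (log2 fold change 0.11, interval −0.24 to 0.47, edgeR, adjusted p = 0.670). Without tumour 4 Fn1 passed as higher in day 7 GFP cells (log2 fold change 0.39, adjusted p = 0.000163), so that 1 tumour decides this value. On day 15 Fn1 held 22551, 19058 and 20104 CPM in GFP cells, against 21958, 20643 and 21562 CPM in mCherry cells. These libraries overlapped closely (log2 fold change −0.03, interval −0.31 to 0.24, adjusted p = 0.876). The intervals of Vim and Fn1 on day 15 leave room for differences of up to 0.31 on the log2 scale in size.

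Cdh2, the gene of N-cadherin, was all but undetected: 27 counts in all 16 libraries, 0 in 7 of them, and at most 0.457 CPM, in control 2. Day 15 GFP cells held 0, 0.0429 and 0 CPM, against 0.0450, 0 and 0.0458 CPM in mCherry cells. Neither colour stood above the other, and a difference was not detectable at this depth. Thus of the 3 classical markers 2 were at very high levels in these cells and Cdh2 was near 0.

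**Figure D2:**
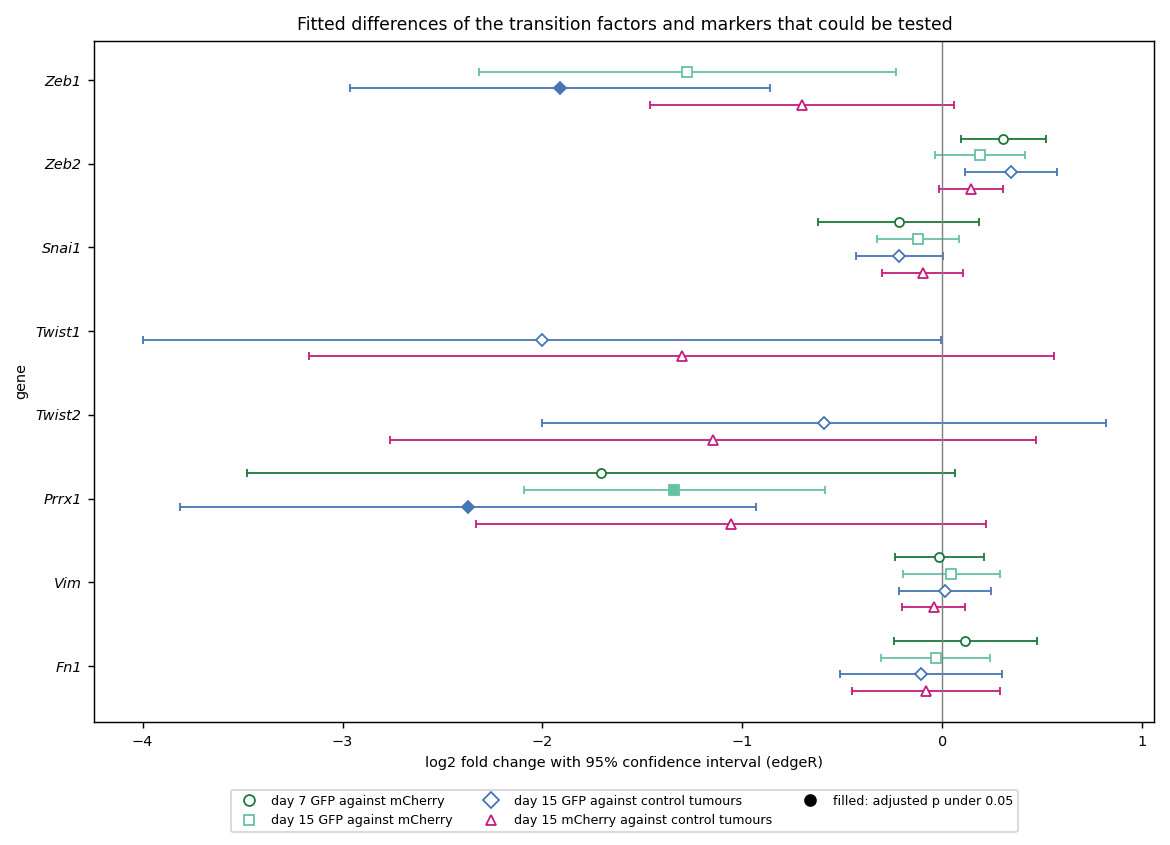
Log2 fold changes (edgeR) with 95% confidence intervals for the genes with enough counts to be tested, 1 marker shape for each comparison; filled symbols passed an adjusted p of 0.05. Vim, Fn1, Snai1 and Zeb2 have narrower intervals than Prrx1, Zeb1 and the Twist genes, whose intervals lie mostly below 0. Zeb2 intervals lie above 0 on day 7 (0.09 to 0.52) and for day 15 GFP cells against controls (0.11 to 0.57). Neither passed.

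The difference between the GFP effects of the 2 days was tested directly, as the day 15 effect minus the day 7 effect within tumours. Of 7 genes tested, 0 passed in edgeR and 0 had an unadjusted p below 0.05, and DESeq2 called 0; 0.211% of 16626 genes passed. The smallest adjusted p was that of Zeb2, 0.844 (difference −0.12 ± 0.15 in log2 fold change, SE). That of Prrx1 was 0.37 ± 0.89 and that of Zeb1 −0.25 ± 0.74. Levels themselves were far apart between the runs: Fn1 averaged 20571 ± 1793 CPM in day 15 GFP cells and 5391.5 ± 676 CPM in day 7 GFP cells (SD, n = 3 each), and 21388 ± 675 CPM in day 15 mCherry cells against 4944.2 ± 883 CPM in day 7 mCherry cells. Zeb2, Snai1 and Vim were also higher in every day 15 library than in every day 7 library. Day and run cannot be told apart in these gaps.

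Day 15 mCherry cells were also compared with mCherry cells of the control tumours. The controls lacked both GFP cells and Jedi T cells, and their harvest day is not given. An attack on neighbouring cells cannot be told apart from these other differences. Of 8 genes tested 0 passed and 0 had an unadjusted p below 0.05, while 0% of the 14800 genes passed in edgeR; 2104 of those had an unadjusted p below 0.05, and DESeq2 called 151 higher and 100 lower, none of them among the 8. Zeb1 held 1.30, 1.18 and 0.962 CPM in day 15 mCherry cells, against 1.23, 2.93, 1.41 and 2.05 CPM in controls 1 to 4. Prrx1 held 2.11, 1.22 and 2.11 CPM in day 15 mCherry cells, against 1.19, 7.25, 2.12 and 4.93 CPM in the controls. The controls were widely spread, with control 2 at the top for both, and the groups overlapped (log2 fold changes −0.70 ± 0.34 for Zeb1, edgeR, adjusted p = 0.374, and −1.06 ± 0.56 for Prrx1, adjusted p = 0.414).

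Day 15 GFP cells were set against the same controls, so this comparison shares libraries with those above and is no independent repeat. Of 8 genes tested 2 were lower in GFP cells and 0 higher, against 13.1% of 14801 genes called (6.09% higher and 6.97% lower). Zeb1, at 0.236, 0.386 and 0.804 CPM in GFP cells and 1.23 to 2.93 CPM in controls, was 3.77 times lower (log2 fold change −1.91 ± 0.46, edgeR, adjusted p = 0.0321). Prrx1 was 5.18 times lower (log2 fold change −2.37 ± 0.64, adjusted p = 0.0430), with 0.386 to 0.944 CPM in GFP cells and 1.19 to 7.25 CPM in controls. The groups did not overlap for either gene, but neither passed without GFP library 1 (adjusted p = 0.105 for Zeb1 and 0.108 for Prrx1), GFP library 2 (0.103 and 0.128), control 2 (0.0602 and 0.0762) or control 3 (0.0538 and 0.0587), and Prrx1 also failed without GFP library 3 (0.0968) or control 4 (0.0612).

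The abundant factors showed small differences in the same comparison. Zeb2 held 233, 195 and 181 CPM in day 15 GFP cells, against 176, 168, 154 and 166 CPM in the controls. All GFP libraries lay above all controls, but the difference missed the threshold (log2 fold change 0.34 ± 0.10, edgeR, adjusted p = 0.0563); it passed under DESeq2 (adjusted p = 0.0155) and in a joint fit of run 2 (0.0303). Snai1 held 85.8, 78.3 and 67.9 CPM in GFP cells, against 99.5, 92.2, 91.5 and 88.9 CPM in the controls. Here all GFP libraries lay below all controls (log2 fold change −0.22 ± 0.10, adjusted p = 0.159). Twist1 was 4.01 times lower but did not pass (adjusted p = 0.154), and log2 fold changes were −0.59 ± 0.62 for Twist2, 0.01 ± 0.10 for Vim and −0.11 ± 0.18 for Fn1. Control 2 alone set the top of Twist1 (2.56 CPM) and Twist2 (1.71 CPM); the other 3 controls held at most 1.11 and 0.698 CPM.

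Levels of markers of other cell types are given here beside those of Prrx1 and Zeb1. The cells had been stained for CD45, a leukocyte surface protein, and the sort gate was not stated. In bulk RNA fewer cells of a type and less RNA per cell cannot be told apart. Macrophage and monocyte markers summed to 56.8 to 74.5 CPM in day 15 GFP cells and 90.8 to 112.5 CPM in day 15 mCherry cells. In controls the sums were 86.6 to 220.4 CPM. Of the markers, 7 of 14 tested were lower in day 15 GFP than mCherry cells. Cd14 was the most abundant in each of these groups and averaged 43.25 CPM in day 15 GFP and 76.3 CPM in day 15 mCherry cells. It alone made up most of both day 15 sums (68.3% in GFP and 72.9% in mCherry cells), against 34.5% in controls. On day 7 the sums were 111.6 to 195.4 CPM in GFP cells, against 675.8 to 986.4 CPM in mCherry cells, all 16 markers were lower, and the most abundant, Lyz2 (lysozyme), averaged 62.2 CPM in the GFP and 371 CPM in the mCherry libraries. Endothelial markers summed to 23.9 to 33.1 CPM in day 15 GFP cells, 38.2 to 72.8 CPM in day 15 mCherry cells (4 of 12 lower) and 34.8 to 145.1 CPM in controls, and to 18.8 to 20.4 CPM in day 7 GFP cells and 53.2 to 90.1 CPM in day 7 mCherry cells (10 of 10 lower). Control 2, the highest library for Prrx1, Zeb1, Twist1, Twist2, Snai2 and Cdh2, was the control with that endothelial maximum, the highest sum of all libraries. It also held the highest macrophage sum of the controls, 220.4 CPM, and the highest fibroblast sum of all libraries, 1898.0 CPM. Its pericyte sum, 114.2 CPM, was below the 118.8 CPM of control 1. Over all genes tested, 9.33% were called lower in GFP than mCherry cells on day 7 and 10.6% on day 15. No macrophage or endothelial marker was at 0 in a whole group.

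Fibroblast markers did not move as a block. Their sum was 1450.8 to 1644.4 CPM in day 15 GFP cells, 1288.0 to 1379.9 CPM in day 15 mCherry cells and 1493.8 to 1898.0 CPM in controls, and none was at 0 in a whole group. Dcn (decorin, a matrix proteoglycan) made up 45.9% of it in day 15 GFP cells and was higher there than in mCherry cells, whereas 4 of the other markers tested were lower. On day 7 the sums were 874.9 to 897.3 CPM in GFP cells, against 790.7 to 971.8 CPM in mCherry cells, with 0 of 8 higher and 1 lower. Pericyte markers summed to 56.9 to 113.8 CPM in day 15 GFP cells, 91.6 to 119.9 CPM in day 15 mCherry cells (2 of 5 lower) and 59.5 to 118.8 CPM in controls. On day 7 they summed to 22.4 to 30.3 CPM in GFP cells and 33.6 to 50.3 CPM in mCherry cells (1 of 4 lower). The same single marker made up 48.7% of the pericyte sum in controls and up to 76.5% in day 15 GFP cells, so these sums largely follow 1 gene. Over all genes tested, 8.89% were called higher and 9.33% lower on day 7, and 8.94% and 10.6% on day 15. Beside these shares, 1 of 8 fibroblast and 1 of 4 pericyte markers lower on day 7 are no result about the lists. T and NK cell markers summed to at most 6.91 CPM in any library, with Cd4 at 0 in all day 7 GFP libraries and Cd3d, Cd8b1, Gzmb and Cd4 at 0 in all day 15 mCherry libraries.

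Col3a1, a fibroblast collagen gene, was picked from the list after its values were seen, and the list's most abundant genes did not share its direction. Its log2 fold change in day 15 GFP against mCherry cells was −1.96 ± 0.63 (edgeR, adjusted p = 0.0551), while that of Dcn was 1.25 ± 0.09 (adjusted p = 3.04e-05) and that of Pdgfra, a growth factor receptor gene, 0.28 ± 0.09 (adjusted p = 0.0576). Col3a1 held 35.1, 8.76 and 11.3 CPM in day 15 GFP cells, 128.1, 5.29 and 190.7 CPM in day 15 mCherry cells, and 52.2, 703.5, 153.0 and 303.3 CPM in controls 1 to 4. In tumour 2 the mCherry library held less Col3a1 than the GFP library. Prrx1 in that mCherry library was 1.22 CPM, above every day 15 GFP library. Among controls the order of Col3a1 was also the order of Prrx1 and of Zeb1. The part of fibroblast, endothelial or macrophage RNA in the differences of Prrx1 and Zeb1 was not tested.

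**Figure D3:**
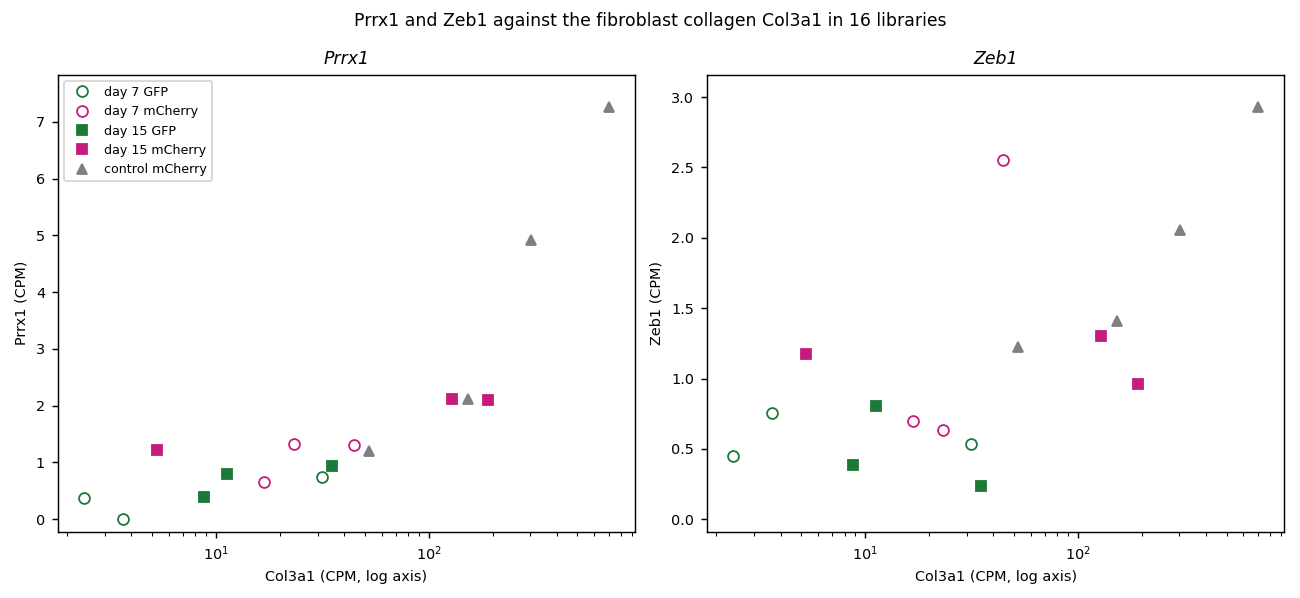
Prrx1 (left) and Zeb1 (right) in CPM against Col3a1 in CPM on a log axis, with 1 point for each of the 16 libraries. The controls with more Col3a1 had more of both genes, and the day 15 mCherry library with 5.29 CPM of Col3a1 lies above the day 15 GFP libraries in both. Col3a1 was picked after its values were seen. Dcn and Pdgfra, abundant genes of the same list, did not share its direction between day 15 GFP and mCherry cells. The part of fibroblast RNA in these values was not tested.

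Genes that these factors are known to repress were split in GFP cells. Cdh1 was higher and the keratin genes Krt8 and Krt18 were lower, on both days and in every tumour; Krt19, a keratin gene with few counts, had a log2 fold change of 0.02 on day 15 (edgeR, adjusted p = 0.968) and was not tested on day 7. Of 21 epithelial genes, 10 were tested on day 7, with 1 higher and 4 lower (median −0.34 on the log2 scale), and 12 on day 15, with 1 higher and 3 lower and a median of −0.19, beside all-gene medians of −0.0037 and 0.0065 and shares of all genes called of 18.2% and 19.5%. Cdh1 held 24.9, 24.0 and 29.7 CPM in day 7 GFP cells, against 6.96, 6.08 and 7.42 CPM in mCherry cells. It held 27.5, 37.3 and 36.5 CPM in day 15 GFP cells, against 12.5, 13.9 and 13.5 CPM in mCherry cells. The groups were far apart on both days, at 3.78 times higher on day 7 (log2 fold change 1.92 ± 0.16, edgeR, adjusted p = 5.54e-05) and 2.56 times higher on day 15 (1.36 ± 0.11, adjusted p = 5.92e-05). Controls held 16.2, 16.9, 19.4 and 31.1 CPM of Cdh1, and the log2 fold change of day 15 GFP cells against them was 0.75 ± 0.21 (adjusted p = 0.0503). In that comparison 0 of 13 epithelial genes tested were called higher and 3 lower, Krt18 and Krt8 among them. Over all genes 6.09% were called higher and 6.97% lower.

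Krt8 and Krt18, the paired keratins of simple epithelium whose promoters are printed above, went the other way. Krt18 held 93.4, 121 and 135 CPM in day 7 GFP cells, against 472, 267 and 423 CPM in mCherry cells. In day 15 GFP cells it held 108, 84.4 and 111 CPM, against 267, 190 and 161 CPM in mCherry cells. No GFP library reached the lowest mCherry library on either day (log2 fold change −1.72 ± 0.18 on day 7, edgeR, adjusted p = 0.000241, and −0.98 ± 0.13 on day 15, adjusted p = 0.000719). Krt8 fell by 0.96 on the log2 scale on day 7, with 434 ± 87.9 CPM in GFP cells, against 826 ± 109 CPM in mCherry cells (SD, n = 3 each; edgeR, adjusted p = 0.00142). On day 15 it fell by 0.55, with 363 ± 32.4 CPM in GFP cells, against 547 ± 109 CPM in mCherry cells (adjusted p = 0.00824, and 0.0978 in the joint fit of run 2). Neither these keratins nor Cdh1 differed between days past the threshold in the interaction test (adjusted p = 0.269 for Cdh1, 0.533 for Krt8 and 0.342 for Krt18). As a check of the labelled tumour cells, Krt8 was at 325.9 CPM or more in all 16 libraries, while Epcam and Krt19, other epithelial markers, stayed at or below 2.62 and 3.17 CPM.

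**Figure D4:**
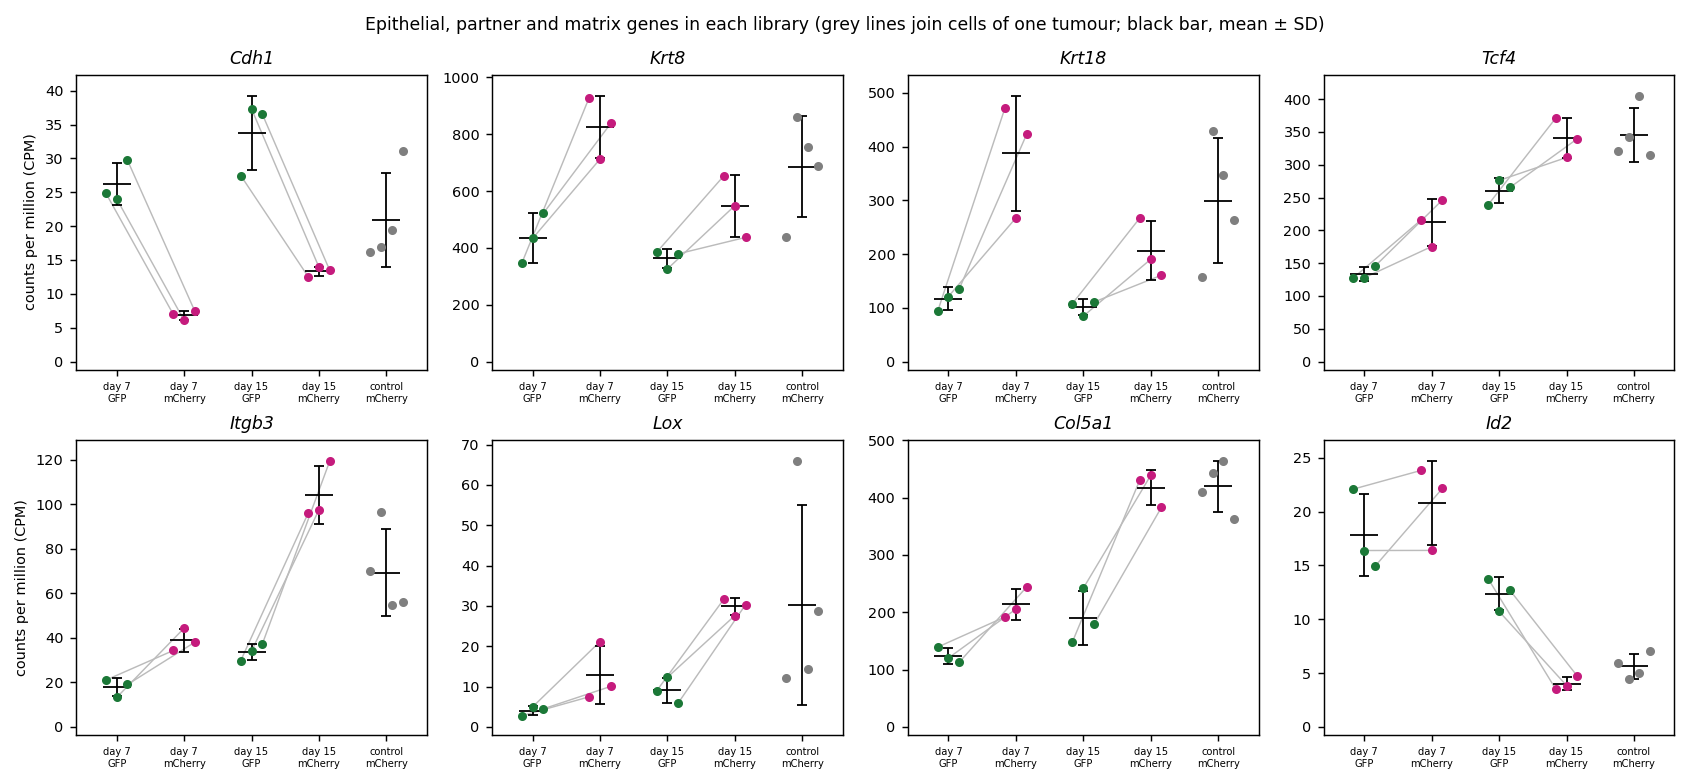
CPM of epithelial (Cdh1, Krt8, Krt18), partner (Tcf4, Id2) and matrix or adhesion genes (Itgb3, Lox, Col5a1) in each library, with GFP cells left of mCherry cells, controls last, grey lines within tumours and mean ± SD in black. Cdh1 is higher in GFP cells of all 6 tumours, and Krt8, Krt18, Tcf4, Itgb3, Lox and Col5a1 are lower in all 6.

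Matrix and adhesion genes of the mesenchymal state are given as counts and medians. Of 19 tested on day 7, 1 was higher and 7 lower, at a median of −0.49 on the log2 scale, and of 20 tested on day 15, 0 were higher and 9 lower, with a median of −0.43. Over all genes, 8.89% were higher and 9.33% lower on day 7 (median −0.0037), and 8.94% and 10.6% on day 15 (median 0.0065). Itgb3, the integrin beta 3 gene, held 21.04, 13.2 and 19.1 CPM in day 7 GFP cells, against 34.4, 44.4 and 38.1 CPM in mCherry cells. On day 15 it held 29.8, 34.1 and 37.3 CPM in GFP cells, against 96.1, 97.6 and 119.5 CPM in mCherry cells. The groups were apart on both days (log2 fold change −1.17 ± 0.19, edgeR, adjusted p = 0.00273, and −1.60 ± 0.09, adjusted p = 8.47e-06). Lox, a collagen crosslinking enzyme, fell by 1.61 on day 7 and by 1.74 on day 15 on the log2 scale, the second with an adjusted p of 0.0587 in the joint fit of run 2. Mmp2, a matrix protease, was 2.20 times lower on day 7, and Col5a1, a fibrillar collagen, 2.20 times lower on day 15 (190 ± 47.6 CPM in GFP cells, against 418 ± 30.2 CPM in mCherry cells). Mmp2 did not pass on day 15 (log2 fold change −0.19 ± 0.13, edgeR, adjusted p = 0.321). Col5a1 was also lower on day 7, by 1.74 times (edgeR, adjusted p = 0.00348). Axl, a receptor kinase, was the gene that rose on day 7, by 0.58 on the log2 scale. Collagens and Lox are also fibroblast genes, and the part of other cells in these falls was not tested.

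Of 12 partner factors tested, 2 were higher and 2 lower on day 7, and 2 higher and 1 lower on day 15, with medians of 0.04 and 0.17. Among all genes 18.2% and 19.5% were called on these days, so that the counts are no result about the list. Tcf4, an E protein that pairs with Twist factors, was lower on both days, at 134 ± 10.3 CPM in GFP cells, against 212 ± 35.7 CPM in mCherry cells on day 7 (log2 fold change −0.68 ± 0.11, edgeR, adjusted p = 0.00232). On day 15 it held 260 ± 18.9 CPM in GFP cells, against 341 ± 30.1 CPM in mCherry cells (−0.36 ± 0.09, edgeR, adjusted p = 0.0217, and 0.0934 without tumour 3). Sox9, an HMG-box transcription factor, and Hmga2, a chromatin protein, were 1.41 and 1.63 times higher on day 7, calls that ended without tumour 3 (adjusted p = 0.117 and 0.0815). On day 15 neither passed (log2 fold changes 0.15 and 0.21, edgeR, adjusted p = 0.322 and 0.136). Id2, which blocks helix-loop-helix factors, differed between the days: it held 13.7, 10.7 and 12.7 CPM in day 15 GFP cells against 3.51, 3.84 and 4.72 CPM in mCherry cells, and 22.1, 16.4 and 14.9 CPM in day 7 GFP cells against 23.8, 16.4 and 22.2 CPM in mCherry cells. Its day 15 effect exceeded its day 7 effect by 1.89 ± 0.24 in log2 fold change (edgeR, adjusted p = 0.0152).

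TGF-beta signalling is the best known inducer of these factors. Of 12 of its genes tested on each day, 2 were higher and 3 lower on day 7 and 1 higher and 4 lower on day 15, with medians of −0.12 and −0.15, beside 8.89% higher and 9.33% lower on day 7 and 8.94% higher and 10.6% lower on day 15 among all genes. Tgfbr3, the co-receptor betaglycan, was 2.58 times higher on day 7 and 2.31 times higher on day 15 in GFP cells. Tgfbr1, the signalling receptor, was 1.45 and 1.36 times lower on these days (adjusted p = 0.0577 on day 15 in the joint fit of run 2). Among ligands, Tgfb3 was 1.77 times lower on day 7, and Tgfb1 averaged 54.5 ± 7.25 CPM in day 15 GFP cells and 95.8 ± 6.39 CPM in mCherry cells (log2 fold change −0.79 ± 0.10, edgeR, adjusted p = 0.000699). Tgfb3 did not pass on day 15 (1.16 times lower, edgeR, adjusted p = 0.163). Tgfb1 did not pass on day 7 (log2 fold change −1.10 ± 0.34, edgeR, adjusted p = 0.0517). Skil, an inhibitor of SMAD signalling, was lower on both days, by 1.59 and 1.31 times.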

How the data were processed

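RNA was measured in 16 libraries of sorted cells. Per the labels' protocols, the raw counts per gene came to the authors from the company that did the sequencing, and the build was mm10, per the submitters' processing notes. RNA was extracted with a column kit or by that company. Which library had which, and the aligner, counter and annotation, were not stated in the sources used here. For each day there is also a table of the authors' own DESeq2 comparison, which per the file headers holds log2 fold changes, standard errors, p-values and a test score. Each count table has 49315 genes. The 176 genes without a symbol, with at most 0.0110% of a library's counts, were not named, 195 that share a symbol were told apart by identifier, and an empty line was ignored. Coordinates and exon lengths come from GENCODE M21 (GRCm38), and promoters from RefSeq (GRCm38.p6).

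Genes passed edgeR's filterByExpr at a minimum count of 10 and a minimum total of 15. TMM normalization and quasi-likelihood F-tests (edgeR 4.0.16, R 4.3.3) followed, with Benjamini-Hochberg adjustment over all genes tested and a threshold of 0.05. The contrast of GFP with mCherry cells within a day had tumour as a block, and that of day 15 cells with controls had none; several libraries therefore enter more than 1 comparison. Levels are CPM of the library total, and SE and 95% intervals are those of the fitted log2 fold change. The statistics were tested on simulated data, with changes placed only in well counted genes. That test therefore does not cover scarce genes such as Zeb1, or Prrx1 between GFP and mCherry cells. Replicates of a group differed beyond counting error (chi-square per degree of freedom 5.34 to 92.1), so none was treated as a repeat of another. Library 4 of day 7 mCherry gave the highest values, 92.1 with library 2 and 88.1 with library 3. Libraries 2 and 3 gave 10.5 with each other.

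The labels give the day 15 pairs. On day 7 the columns carry the numbers 2 to 4 where the labels have 1 to 3, so columns were assigned to groups only and paired by column number. Residual correlations were 0.110 to 0.162 for libraries of the same number and −0.130 to 0.00919 for others on day 7, and 0.0896 to 0.232 against −0.183 to 0.0186 on day 15. Residuals were taken from group means, so a positive value for 1 pair lowers the others, and the contrast is partly built in. The day 7 pairing therefore stays an assumption. The genes, lists and tests were chosen with earlier results of these data known. All 10 genes are named throughout. Of each other list the 3 genes with the smallest p on either day are named. Of marker lists the sums and counts are given, with the most abundant gene named for the macrophage and fibroblast lists. A gene that this rule also named is not reported here. Axl, Dcn, Pdgfra, Krt19, Cd4 and Col3a1 were added after their values were seen. The alternatives tried were DESeq2 1.42.0, DESeq2 size factors within edgeR, filters at no minimum and at 50, a fit without the block, a joint fit of run 2, and leaving out each tumour or library.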

Additional observations from a re-analysis of the deposited data

How the results depend on the processing

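The number of the 10 genes called on day 7 was 0; it was 1 with no filter (Prrx1 lower), 1 at a minimum count of 50 (Zeb2 higher), and 0 to 2 when a tumour was left out (Prrx1 lower without tumour 2, Fn1 and Zeb2 higher without tumour 4). On day 15 it was 1 (Prrx1); it was 2 with no filter (Zeb1 added), and 0 under DESeq2, at a minimum count of 50 (Prrx1 and Zeb1 were then not tested), with no replicate block and in the joint fit of run 2, and 0 to 1 without a tumour (Zeb1 in place of Prrx1 without tumour 3). Without the replicate block day 7 kept 0 calls. For day 15 GFP cells against controls it was 2, with 3 under DESeq2 and in the joint fit, 1 at a minimum count of 50 and 0 to 2 without a library. The difference between days and day 15 mCherry cells against controls gave 0 calls of these genes under every alternative run. Over all genes, those called for the difference between days were 35, against 153 under DESeq2, 354 with no filter, 14 at a minimum count of 50, 2 without the block and 3 to 126 without a tumour. For day 15 mCherry cells against controls they were 0, against 251 under DESeq2 and at most 7 without a library; for day 15 GFP cells against controls 1933, against 2953 under DESeq2 and 287 to 2093 without a library; for day 7 2656, against 1156 to 4558 without a tumour; and for day 15 2782, against 1736 without tumour 3. The causes were not tested.

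Some log2 fold changes changed sign when a tumour or library was left out, as these lowest and highest values show. On day 7 they ran from −0.427 to 0.0906 for Snai1, −0.0444 to 0.0100 for Vim, −0.0296 to 0.387 for Fn1, and, of marker genes, −1.37 to 0.497 for Abcc9 and −0.896 to 0.482 for Nkg7. On day 15 they ran from −0.0521 to 0.153 for Vim and −0.105 to 0.0208 for Fn1. For the difference between days they ran from −0.920 to 0.179 for Zeb1, −0.190 to 0.321 for Snai1, −0.478 to 1.03 for Twist2, −0.490 to 1.57 for Prrx1, −0.0358 to 0.164 for Vim and −0.398 to 0.0119 for Fn1. Against controls they ran from −0.192 to 0.0226 for Fn1 in day 15 mCherry cells, and in day 15 GFP cells from −1.05 to 0.0563 for Twist2, −0.0804 to 0.0946 for Vim (−0.0015 with no filter) and −0.221 to 0.0061 for Fn1. Depth limits Snai2, Cdh2 and the Twist genes, with 27 to 188 counts in all.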
